A study of Mus musculus with 8 samples.

Results

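The comparison described here set mouse CD3 T cells kept for 3 h on a plate coated with poly-L-lysine (PLL) against the same kind of cell in its steady state, called naive 0 h, and it used 2 of the 8 arrays of the series, 1 for each group. The cells were primary CD3 T cells of C57BL/6J mice, purified from spleen and lymph nodes by removing the other cells, and transcript levels came from the Affymetrix GeneChip Mouse Gene 2.0 ST. Cells of the PLL 3 h array were in T cell medium on the coated plate with no stimulus added, and the naive 0 h cells were taken with no treatment. The other 6 arrays held cells given soluble concanavalin A (ConA) for 3 h, ConA on a PLL plate for 3 h, and the 24 h samples of the naive, ConA, PLL and ConA + PLL conditions. The paper's methods state that cells for the 24 h samples were stimulated for 3 h, washed and then cultured further. They do not state whether that further culture was on PLL. No array of unstimulated cells kept for 3 h on an uncoated plate was analysed here, so contact with PLL and 3 h of culture cannot be told apart. With 1 array a group there was no replicate, no test across arrays and no p-value, and each difference below is a difference between those 2 arrays.

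PLL is a positively charged polymer that binds the negatively charged surface of cells, and the study used it as a nonspecific surface for adhesion. A naive T cell carries transcripts of its resting state, and it can also carry short-lived ones: those of heat shock chaperones, which refold proteins and are switched on by heat shock factor, the AP-1 and other immediate early transcription factors, which follow kinase signalling, and the phosphatases and mRNA decay factors that shut those signals off again. T cells also respond to type I interferon, which switches on a large set of antiviral genes.

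Levels are given as log2 values, so a difference of 1 is 2-fold. Of 22180 genes with a probe set of their own, 13428 passed a filter on low values, and the median difference over all of them, PLL 3 h minus naive 0 h, was 0.00084. At 2-fold, 48 genes were higher on the PLL 3 h array (0.357% of those that passed) and 37 were lower (0.276%). At 1.5-fold, 469 genes were higher (3.49%) and 387 were lower (2.88%). Of all genes that passed, 50.1% lay above 0 and 49.9% below 0. These shares are the background for the counts of each gene list below. Most of the 2-fold genes were dim on at least 1 of the 2 arrays, though some of these were bright on the other. Olfactory and vomeronasal receptor genes, which T cells are not known to use, gave a level of 4.10 that 95% of them did not exceed on any array. Under that level on at least 1 of the 2 arrays lay 30 of the 48 higher genes and 20 of the 37 lower genes. Under it on both arrays lay 13 of the 48 and 3 of the 37, against 3335 of all 13428 genes. Of the 13428, 9181 were at or above it on both arrays. The spread of the differences, as a robust SD over all genes, was 0.281, against 0.193 between the PLL 24 h and naive 24 h arrays.

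**Figure D1:**
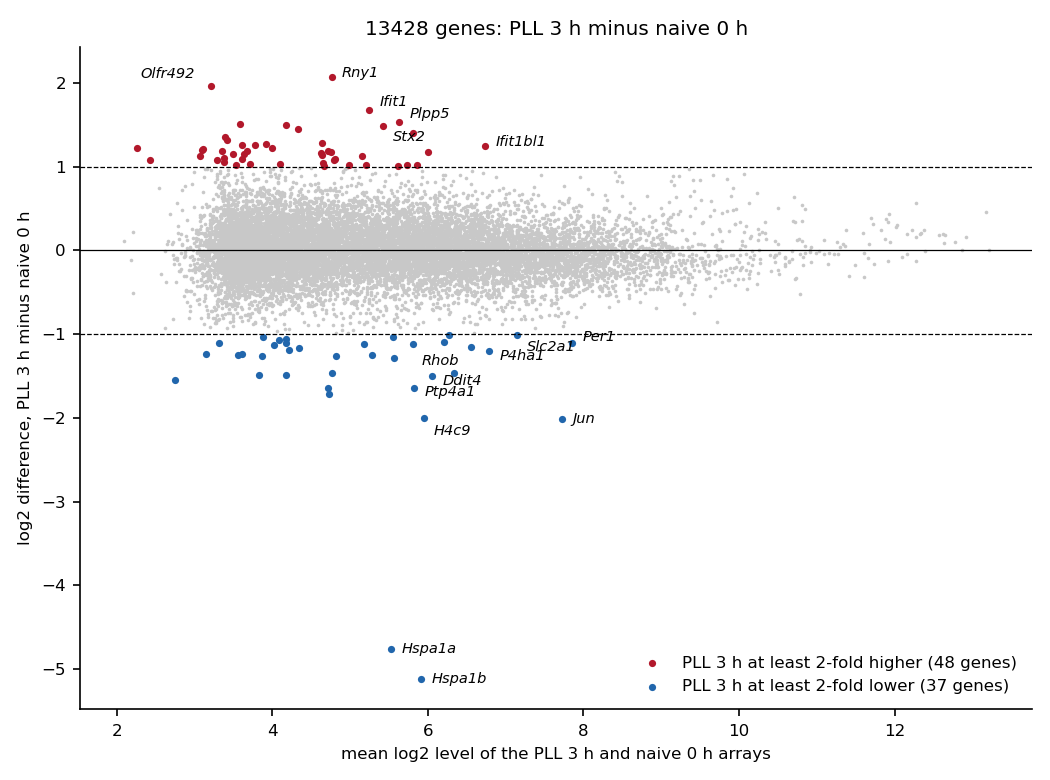
Each point is 1 of 13428 genes, with the mean log2 level of the PLL 3 h and naive 0 h arrays on the x axis and the log2 difference, PLL 3 h minus naive 0 h, on the y axis. Dashed lines mark 2-fold. The 48 higher genes (red) reach 2.07 and most of the 37 lower genes (blue) lie above -2.1, while Hspa1a and Hspa1b stand apart at -4.76 and -5.12.

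The cells matched their label. All 10 T cell markers measured were bright, between 7.83 and 10.24 on the PLL 3 h array and between 7.39 and 10.25 on the naive 0 h array. Of the marker lists of other cells, the plasmacytoid dendritic cell list summed to 7.50 on the PLL 3 h array and 7.64 on the naive 0 h array (log2 of the summed linear levels). The B cell list summed to 9.24 on PLL 3 h and 9.43 on naive 0 h. The monocyte and macrophage list summed to 9.02 on PLL 3 h and 8.84 on naive 0 h, and the stroma and endothelium list to 9.09 on PLL 3 h and 8.92 on naive 0 h. Each of these 3 sums came mostly from 1 gene. The brightest gene on PLL 3 h was at 9.10 in the B cell list, 8.68 in the monocyte list and 8.90 in the stroma list. Of the 5 B cell genes that passed, 3 were under the receptor level on both arrays. The dendritic cell list summed to 10.09 on the PLL 3 h array and 9.59 on the naive 0 h array. Nearly all of that sum came from Cd209a, a C-type lectin, at 9.93 on PLL 3 h and 9.34 on naive 0 h, whereas Flt3, Itgax and H2-Aa were under the receptor level on both arrays. Of the 8 dendritic cell genes that passed, 4 were under that level on both arrays and the rest were not. Bulk arrays cannot tell fewer cells of a type from less RNA per cell.

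The heat shock genes Hspa1a and Hspa1b, which encode the stress-inducible HSP70 chaperones, gave by far the widest gap between the 2 arrays. The level of Hspa1b was 3.35 on the PLL 3 h array and 8.47 on the naive 0 h array. Hspa1a was at 3.15 on the PLL 3 h array and 7.91 on the naive 0 h array. On the PLL 3 h array both lay under the receptor level of 4.10, among signals that cannot be told from background. The PLL 3 h array was therefore at least 20.7-fold lower for Hspa1b and at least 14.04-fold lower for Hspa1a when naive 0 h was set against that level. The 2 genes are neighbours with near-identical sequences, and probes for one may bind RNA of the other, so they are not independent measurements.

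Both lie on the minus strand of chromosome 17, and 247 of the 250 bases before their starts are equal. The windows below come from the RefSeq promoter table for GRCm38.p6 and are shown because these 2 genes carry the widest difference; capitals mark a heat shock element of 2 units, GAANNTTC or TTCNNGAA, which reads the same on both strands and lies 104 bases before each start. A window of the same kind is given for Hspe1, the mitochondrial co-chaperone HSP10, whose promoter is shared with Hspd1 (HSP60) on the other strand.
Hspa1a, chr17:34972233-34972280, minus strand: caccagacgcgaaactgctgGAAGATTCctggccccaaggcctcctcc
Hspa1b, chr17:34959315-34959362, minus strand: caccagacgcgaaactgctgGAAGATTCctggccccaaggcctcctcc
Hspe1, chr1:55088039-55088096, plus strand: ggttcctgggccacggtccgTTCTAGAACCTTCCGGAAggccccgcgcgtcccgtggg
Hspa1a and Hspa1b have the same 48 letters here, and Hspe1 holds 3 overlapping matches. Of 20 heat shock genes of the list with a promoter in the table, 11 held such a match in their 300 bases, against 16.97% of all 27025 genes in the table and 13.8% of the genes that passed the filter. A match describes letters and not a site in use.

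Other heat shock genes differed far less. The list named 25 genes, of which 23 were measured and passed, and 18 lay below 0, against 49.9% of all genes. Of the list, 3 were at least 1.5-fold lower, with no gene 1.5-fold higher. Its median difference was -0.29. Hsph1, the HSP110 nucleotide exchange factor, was the third of these, at 6.01 on the PLL 3 h array and 6.63 on the naive 0 h array. Hspd1 was at 6.23 on PLL 3 h and 6.77 on naive 0 h. Dnajb1, the HSP40 partner of HSP70, was at 6.30 on PLL 3 h and 6.80 on naive 0 h. Hspa8 (9.88 on PLL 3 h and 10.23 on naive 0 h), Hsp90aa1 (6.93 on PLL 3 h and 7.24 on naive 0 h) and Bag3 (5.45 on PLL 3 h and 5.86 on naive 0 h) had smaller gaps of the same sign. Fkbp4 (6.95 on PLL 3 h and 6.76 on naive 0 h) and Dnaja4 (5.15 on PLL 3 h and 4.96 on naive 0 h) lay the other way. Chaperones that are not classed as inducible had a median of -0.02 over 27 genes.

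On the remaining arrays Hspa1b was at 8.08 with ConA for 3 h and 6.95 with ConA + PLL for 3 h, and it was between 2.93 and 3.20 on all 4 arrays of 24 h. Hspa1a was at 7.47 with ConA and 6.42 with ConA + PLL for 3 h, and between 2.97 and 3.41 at 24 h. So the 2 genes were bright on 3 of the 4 arrays of 0 h and 3 h and dim on PLL 3 h and on all 24 h arrays. On the PLL 3 h and naive 24 h arrays alike both genes were under the receptor level, so their order between these arrays cannot be read.

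Transcription factors of the AP-1 family, dimers of Jun, Fos, Maf and Atf proteins that bind after kinase signalling, were lower on the PLL 3 h array in 9 of 11 genes that passed, with a median of -0.25. Jun was at 6.72 on the PLL 3 h array and 8.73 on the naive 0 h array, a 4.03-fold difference and the widest of any gene with both levels above the receptor level. Fosl2 was at 7.51 on PLL 3 h and 8.30 on naive 0 h. Junb was at 7.83 on PLL 3 h and 8.28 on naive 0 h, and Fos at 5.10 on PLL 3 h and 5.46 on naive 0 h. Fosb (5.65 on PLL 3 h and 5.75 on naive 0 h) and Jund (8.47 on PLL 3 h and 8.55 on naive 0 h) had nearly equal levels. Batf, at 5.32 on PLL 3 h and 4.87 on naive 0 h, and the dim Maff, at 3.77 on PLL 3 h and 3.57 on naive 0 h, lay the other way. Jun alone passed 2-fold. Jun was at 8.27 with ConA and 7.81 with ConA + PLL for 3 h and at 5.35 on the naive 24 h array, from which PLL 3 h differed by 1.36.

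The immediate early and T cell activation factors had a median of -0.26 over 26 genes, 22 of them below 0, of which 1 passed 1.5-fold. That gene was Klf6, a Krüppel-like factor, at 9.28 on the PLL 3 h array and 10.14 on the naive 0 h array. Nr4a1, an orphan nuclear receptor that marks antigen receptor signalling, was at 8.71 on PLL 3 h and 9.18 on naive 0 h. Nr4a3 was at 8.08 on PLL 3 h and 8.61 on naive 0 h, and Egr3 at 4.80 on PLL 3 h and 5.30 on naive 0 h. For these 3 genes the ConA 3 h array was higher than both, at 10.84, 9.56 and 7.09. Cd69, an early activation receptor, was at 8.15 on the PLL 3 h array, 8.75 on the naive 0 h array and 9.67 on the ConA 3 h array, and the early surface activation receptors had a median of -0.24 over 22 genes.

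Feedback regulators were mostly lower on the PLL 3 h array. Of 23 phosphatases, Sprouty proteins and mRNA decay factors that passed, 19 were below 0, 8 were at least 1.5-fold lower and none was 1.5-fold higher, with a median of -0.27. Among all genes, 49.9% were below 0 and 2.88% were 1.5-fold lower. Zfp36, which encodes the mRNA decay factor tristetraprolin, was at 7.67 on the PLL 3 h array and 8.67 on the naive 0 h array, just short of 2-fold. Zfp36l1, its relative, was at 8.59 on PLL 3 h and 9.27 on naive 0 h. Rgs1, a brake on chemokine receptor signalling, was at 5.51 on PLL 3 h and 6.37 on naive 0 h. Ppp1r15a, which directs the phosphatase for the translation factor eIF2α, was at 6.03 on PLL 3 h and 6.88 on naive 0 h. Among the MAP kinase phosphatases, Dusp6 was at 5.51 on PLL 3 h and 6.19 on naive 0 h, and Dusp1 at 7.34 on PLL 3 h and 7.97 on naive 0 h. The mean over all probe sets of Dusp6 gave a difference of -0.25 in place of -0.68. Socs1, a brake on cytokine receptors, lay furthest on the other side, at 5.49 on PLL 3 h and 5.03 on naive 0 h.

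Some genes of the unfolded protein and integrated stress responses were lower as well. Over 29 genes the median was -0.07, with 4 at least 1.5-fold lower and none higher. Those 4 were Ppp1r15a, Atf6 (5.16 on PLL 3 h and 5.98 on naive 0 h), Atf4 (7.25 on PLL 3 h and 8.02 on naive 0 h) and Eif2ak3 (6.18 on PLL 3 h and 6.78 on naive 0 h). Ppp1r15a is also in the list of feedback regulators. Atf4 is the transcription factor of the integrated stress response and Eif2ak3 encodes the kinase PERK, which acts upstream of it, while Atf6 is a sensor in the endoplasmic reticulum.

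**Figure D2:**
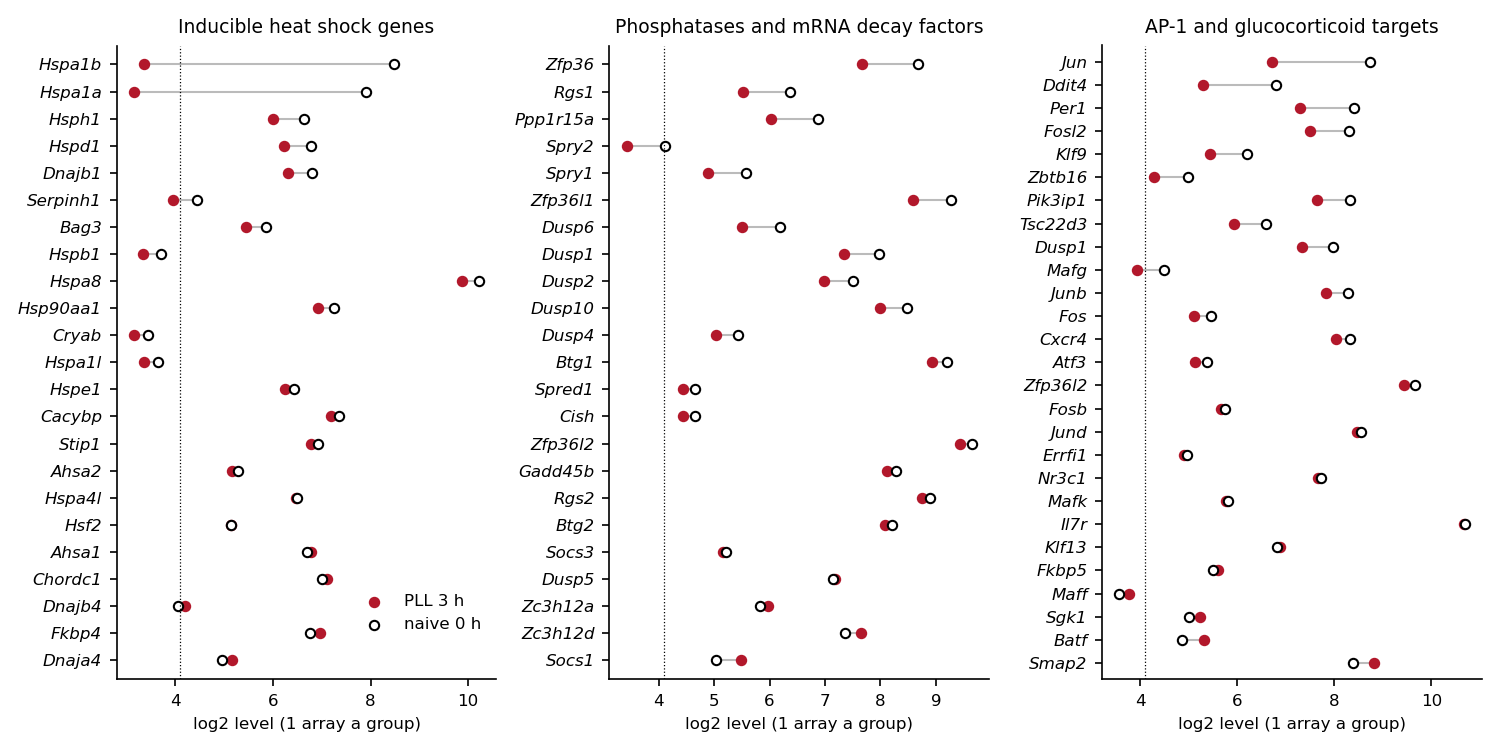
Pairs of log2 levels for the genes of 4 lists, PLL 3 h as red points and naive 0 h as open points, 1 array each, ordered from the lowest difference at the top; the dotted line marks the receptor level of 4.10. The gaps for Hspa1b (3.35 on PLL 3 h and 8.47 on naive 0 h) and Hspa1a (3.15 on PLL 3 h and 7.91 on naive 0 h) are the widest, and in the phosphatase and decay list 19 of 23 red points lie left of the open ones.

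Targets of the glucocorticoid receptor, a list chosen for the hormone response of lymphocytes, had a median of -0.25 over 16 genes, with 7 at least 1.5-fold lower and none higher. This list shares Dusp1 and Zfp36l2 with that of the feedback regulators. Ddit4 (REDD1), an inhibitor of mTORC1, was at 5.30 on the PLL 3 h array and 6.81 on the naive 0 h array. The clock gene Per1 was at 7.30 on PLL 3 h and 8.41 on naive 0 h. Klf9 was at 5.45 on PLL 3 h and 6.19 on naive 0 h, and Tsc22d3, which encodes the glucocorticoid-induced leucine zipper GILZ, at 5.93 on PLL 3 h and 6.58 on naive 0 h. Pik3ip1, an inhibitor of PI3 kinase, was at 7.64 on PLL 3 h and 8.31 on naive 0 h. Fkbp5, another target of the receptor, was at 5.61 on PLL 3 h and 5.49 on naive 0 h, and Smap2, at 8.83 on PLL 3 h and 8.37 on naive 0 h, lay clearly above 0. Ddit4 on the PLL 3 h array was the lowest of all 8 arrays, with the others between 5.63 and 7.14.

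Glucose uptake and glycolysis genes had the lowest median of the 42 lists, -0.30 over 22 genes, with 16 below 0. Slc2a1, the glucose transporter GLUT1, was at 6.64 on the PLL 3 h array and 7.65 on the naive 0 h array. These were the lowest and the highest of the 8 arrays, and naive 24 h was close to PLL 3 h, at 6.70. A second, dim probe set of Slc2a1 differed by -0.25, and the mean of both gave -0.63, under 2-fold. Of the enzymes, Tpi1 was at 5.55 on PLL 3 h and 6.20 on naive 0 h, and Pfkl at 5.55 on PLL 3 h and 6.11 on naive 0 h. Hk2 was at 4.24 on PLL 3 h and 4.79 on naive 0 h, Gapdh at 8.96 on PLL 3 h and 9.43 on naive 0 h, and Ldha at 5.98 on PLL 3 h and 6.39 on naive 0 h. All 3 probe sets of Gapdh were lower on PLL 3 h, by 0.47 to 0.77. Pdk1, a kinase that inhibits pyruvate dehydrogenase, was higher, at 7.41 on PLL 3 h and 6.92 on naive 0 h. Targets of hypoxia inducible factor, a list that shares no gene with this one, had a median of -0.21 over 21 genes. P4ha1, a collagen prolyl hydroxylase subunit, was at 6.18 on the PLL 3 h array and 7.39 on the naive 0 h array. Epas1 (HIF-2α) was at 4.69 on PLL 3 h and 5.54 on naive 0 h, and the oxidase Ero1a at 7.26 on PLL 3 h and 7.91 on naive 0 h.

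The list with the highest median was that of type I interferon induced genes. It named 60 genes, of which 44 passed. The difference was above 0 for 36 of the 44, at least 1.5-fold for 14 and at least 2-fold for 4, with none 1.5-fold lower, and the median was 0.39. Among all genes, 50.1% were above 0, 3.49% were 1.5-fold higher and 0.357% were 2-fold higher. Ifit1, which binds viral RNA, was at 6.08 on the PLL 3 h array and 4.41 on the naive 0 h array, a 3.20-fold difference. Ifit1bl1, a paralog of Ifit1, was at 7.36 on PLL 3 h and 6.11 on naive 0 h. Ifi208, of the interferon-inducible PYHIN family, was at 5.33 on PLL 3 h and 4.25 on naive 0 h. The fourth gene, Trim30d, was under the receptor level on both arrays. Ifit1 was highest on the PLL 3 h array of all 8 arrays, whereas Ifit1bl1 and Ifi208 were higher still on the naive 24 h array, at 8.01 and 6.81.

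The 1.5-fold level was passed by Ifit3 (5.38 on PLL 3 h and 4.44 on naive 0 h), Usp18, the protease that removes ISG15 from proteins (5.68 on PLL 3 h and 4.84 on naive 0 h), and Ifi213 (6.37 on PLL 3 h and 5.49 on naive 0 h). It was also passed by Xaf1 (5.27 on PLL 3 h and 4.51 on naive 0 h), Herc6, an ISG15 ligase (6.79 on PLL 3 h and 6.10 on naive 0 h), and Ifi35 (7.07 on PLL 3 h and 6.43 on naive 0 h), although the mean of its probe sets put Ifi35 at a difference of 0.48, under 1.5-fold. Others of the list were close to level. The transcription factors of the pathway, Stat2 (6.18 on PLL 3 h and 6.04 on naive 0 h), Irf9 (6.59 on PLL 3 h and 6.68 on naive 0 h) and Irf7 (6.15 on PLL 3 h and 5.89 on naive 0 h), differed by less than the spread of 0.281. Oas2 (4.18 on PLL 3 h and 4.60 on naive 0 h), Bst2 (6.06 on PLL 3 h and 6.42 on naive 0 h) and Rsad2 (4.24 on PLL 3 h and 4.43 on naive 0 h) lay below 0. A pair of Schlafen genes came just short of 1.5-fold, Slfn1 at 9.40 on PLL 3 h and 8.81 on naive 0 h and Slfn5 at 5.64 on PLL 3 h and 5.06 on naive 0 h.

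Promoter windows of 4 of these genes follow, from the same RefSeq table, to show members with a match beside their levels; capitals mark GAAANNGAAA, the core of the interferon-stimulated response element, read on either strand.
Ifit1, chr19:34640765-34640833, plus strand: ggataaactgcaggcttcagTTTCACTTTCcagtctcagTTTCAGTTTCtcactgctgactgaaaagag
Ifit3, chr19:34583353-34583436, plus strand: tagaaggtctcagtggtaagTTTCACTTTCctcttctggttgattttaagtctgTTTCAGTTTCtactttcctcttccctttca
Ifi208, chr1:173673587-173673636, plus strand: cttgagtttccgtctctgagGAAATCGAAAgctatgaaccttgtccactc
Isg15, chr4:156200855-156200916, minus strand: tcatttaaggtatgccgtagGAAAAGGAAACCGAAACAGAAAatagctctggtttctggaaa
Ifit1 holds 2 matches at 104 and 85 bases before its start, and Ifit3 holds 2 at 156 and 122. Isg15, the ubiquitin-like modifier, holds 3 overlapping matches, and its level was 4.50 on the PLL 3 h array and 3.96 on the naive 0 h array, a gap of 0.55 that crossed the receptor level. Of 36 genes of the list with a promoter in the table, 20 held a match, against 3.99% of all genes in the table and 3.63% of those that passed the filter. Among the members at least 1.5-fold apart, it was 8 of 12. The 4 genes shown were all higher on PLL 3 h. Rsad2 and Bst2, both lower on PLL 3 h, also held a match, as did Stat2, which was close to level. In the list of interferon gamma induced genes, with a median difference of 0.17, 11 of 20 genes held a match. A link between a match and the direction of a difference was not tested.

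Sensors of nucleic acids and interferons themselves had a median of 0.30 over 19 genes, 16 of them above 0. Sting1, the adaptor for cytosolic DNA, was at 7.16 on the PLL 3 h array and 6.24 on the naive 0 h array. Mavs, the adaptor for cytosolic RNA, was at 5.91 on PLL 3 h and 5.28 on naive 0 h, and Irf3, the factor downstream of both, at 5.78 on PLL 3 h and 5.31 on naive 0 h. Interferon gamma induced genes had a median of 0.17 over 27 genes, with 4 at least 1.5-fold higher. Psmb10, an immunoproteasome subunit, was at 7.04 on PLL 3 h and 6.36 on naive 0 h. The guanylate-binding proteins Gbp3 and Gbp8 were at 5.16 and 6.94 on PLL 3 h and at 4.50 and 6.32 on naive 0 h. Apol9a, an apolipoprotein L gene of the same list, lay far on the other side, at 4.04 on PLL 3 h and 5.50 on naive 0 h. The dendritic cell and monocyte marker sums given above, each mostly from 1 gene, were also higher on the PLL 3 h array. The plasmacytoid sum was lower. The part of these cells in the interferon gene levels was not tested.

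**Figure D3:**
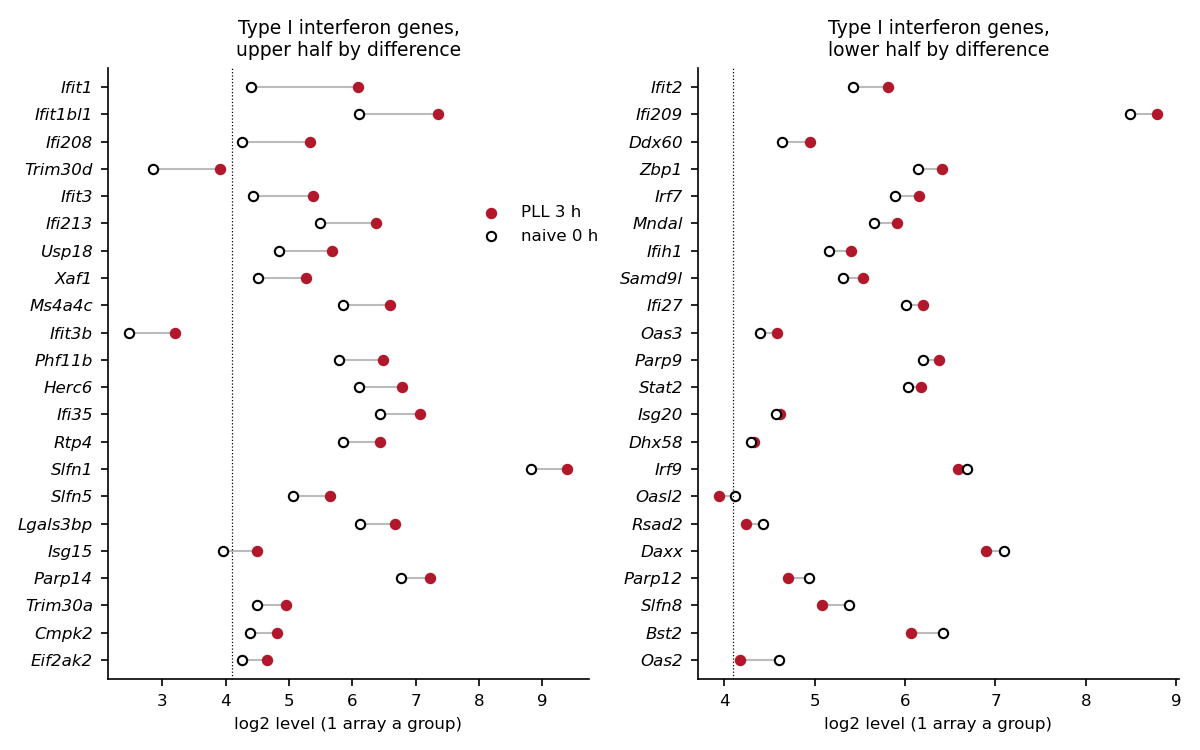
Log2 levels of the 44 type I interferon genes on the PLL 3 h array (red) and the naive 0 h array (open), 1 array each, with the wider gaps towards PLL 3 h at the top left and the receptor level of 4.10 as a dotted line. For 36 of the 44 genes the red point lies to the right, the widest gap being that of Ifit1, at 6.08 on PLL 3 h and 4.41 on naive 0 h.

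Replication-dependent histones, whose RNA ends in a stem-loop and which are made in S phase, spread widely. Of 17 genes 9 lay above 0 and 8 below, 6 were at least 1.5-fold lower, 3 of them 2-fold lower, and the median was 0.01. That median depended on the filter, at -0.15 with a filter on the mean, -0.32 with a filter on the 2 arrays and -0.10 with the brighter filter, and the mean of the list was -0.42. H4c9 was at 4.94 on the PLL 3 h array and 6.95 on the naive 0 h array, and H1f2, a linker histone, at 7.28 on PLL 3 h and 8.19 on naive 0 h. H2aw, at 3.87 on PLL 3 h and 5.59 on naive 0 h, and H1f3, at 3.09 on PLL 3 h and 4.57 on naive 0 h, were under the receptor level on PLL 3 h. H4c12 was at 9.76 on PLL 3 h and 9.75 on naive 0 h, and H2ac10 was at 7.60 on PLL 3 h and 7.58 on naive 0 h. H2ac1, a histone H2A gene outside the list, was at 5.72 on PLL 3 h and 4.59 on naive 0 h, 2.18-fold higher. These genes are near copies of each other, so probe sets may share RNA. Polyadenylated histone variants were above 0 in 6 of 6 genes, led by H2az2 at 7.18 on PLL 3 h and 6.75 on naive 0 h, and none of them passed 1.5-fold.

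Ribosomal protein genes lay slightly lower on PLL as a whole: 38 of 43 were below 0, with a median of -0.10. Rps27 was at 5.66 on the PLL 3 h array and 6.76 on the naive 0 h array, and Rpl11 at 3.65 on PLL 3 h and 4.70 on naive 0 h. Rpl11 was under the receptor level on PLL 3 h. Genes of fatty acid oxidation leaned the other way, with a median of 0.21 over 21 genes. Acadm, the medium-chain acyl-CoA dehydrogenase, was at 8.12 on PLL 3 h and 7.50 on naive 0 h.

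**Figure D4:**
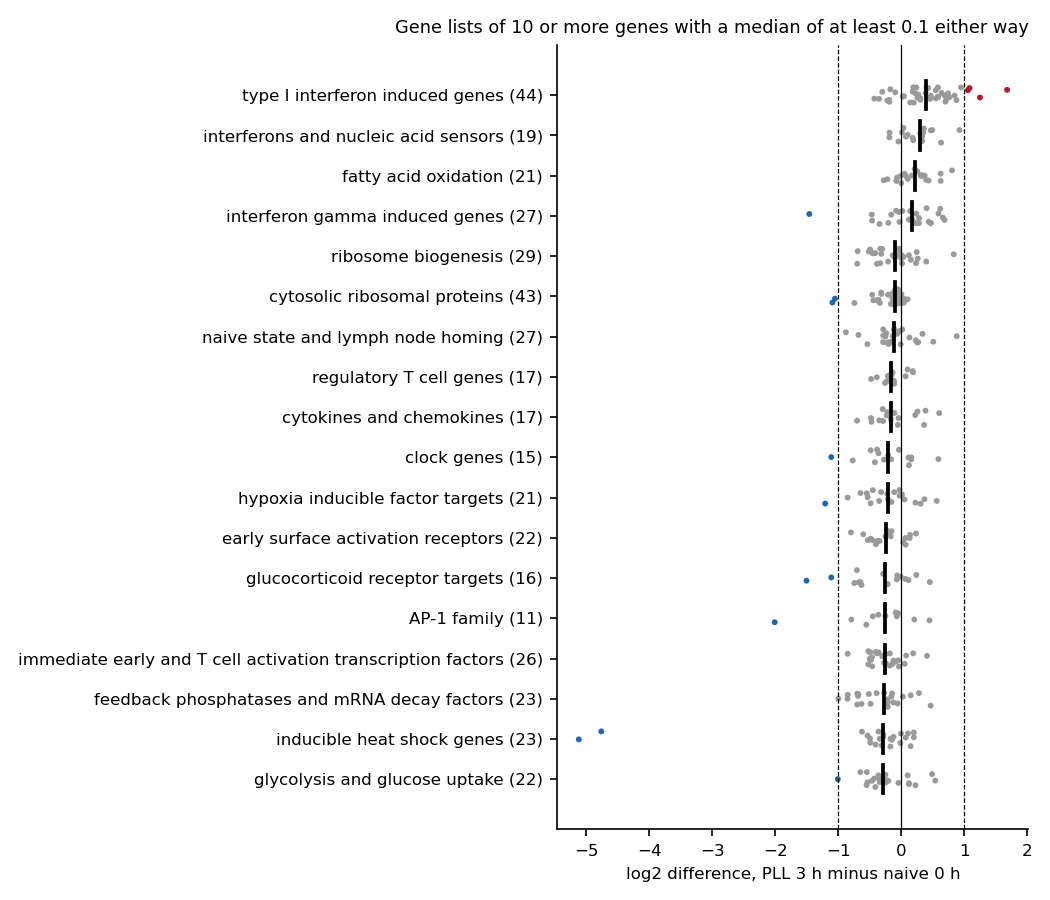
Log2 difference, PLL 3 h minus naive 0 h, of each gene (points) in the lists of 10 or more genes whose median (black bar) was at least 0.1 either way, with the number of genes that passed in brackets; blue and red points are past 2-fold. The type I interferon list has the highest median, 0.39, and the glycolysis list the lowest, -0.30, and the 2 points near -5 are Hspa1b and Hspa1a.

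Among the 20 widest higher genes that the naming rule allowed, a few were above the receptor level on both arrays. Plpp5, a phospholipid phosphatase, was at 6.39 on the PLL 3 h array and 4.86 on the naive 0 h array, a 2.89-fold difference, and Stx2, a syntaxin of membrane fusion, was at 6.16 on PLL 3 h and 4.68 on naive 0 h. Both were higher on PLL 3 h than on any other array, although Plpp5 was at 6.18 on the naive 24 h array. Rny1, the Y RNA bound by the Ro60 protein, was at 5.80 on PLL 3 h and 3.73 on naive 0 h, but the 6 other arrays lay between 4.70 and 5.60, so that naive 0 h was the array apart. Zfp971, a zinc finger gene, was at 5.35 on PLL 3 h and 4.17 on naive 0 h. Olfr492 (4.19 on PLL 3 h and 2.23 on naive 0 h), Ftl1-ps2 (4.92 on PLL 3 h and 3.43 on naive 0 h), Defa40 (5.05 on PLL 3 h and 3.60 on naive 0 h), Tcl1b2 (4.08 on PLL 3 h and 2.76 on naive 0 h), Idh1 (4.61 on PLL 3 h and 3.39 on naive 0 h) and Klrb1 (3.72 on PLL 3 h and 2.51 on naive 0 h) were under the receptor level on at least 1 of the 2 arrays.

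Among the lower genes, Ptp4a1, the phosphatase PRL-1, was at 4.999 on the PLL 3 h array and 6.64 on the naive 0 h array, a 3.12-fold difference. Rhob, a small GTPase of endosomes, was at 5.98 on PLL 3 h and 7.13 on naive 0 h, and Prmt6, an arginine methyltransferase, at 4.62 on PLL 3 h and 5.73 on naive 0 h. Neto2, known as a partner of kainate receptors in neurons, was at 5.25 on PLL 3 h and 6.37 on naive 0 h, and the ConA 3 h and ConA + PLL 3 h arrays were close to PLL 3 h, at 5.30 and 5.37. Cables1 was at 3.43 on PLL 3 h and 4.92 on naive 0 h, again with both ConA arrays near PLL 3 h, at 3.76 and 3.69. For Neto2 and Cables1 the 3 arrays of 3 h thus stood together, whereas Ptp4a1 (6.86 with ConA and 6.56 with ConA + PLL) and Rhob (6.90 with ConA and 7.04 with ConA + PLL) were low on the PLL 3 h array only among those 3. Both were also below naive 0 h on every 24 h array, Ptp4a1 between 4.90 and 5.78 and Rhob between 5.15 and 5.80.

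The machinery of adhesion and antigen recognition was close to level against naive 0 h. T cell receptor and proximal signalling genes had a median of 0.01 over 28 genes, integrins and focal contact genes -0.01 over 29, the Bcl2 family 0.05 over 20 and p53 targets -0.10 over 17, and the 1 gene among them past 1.5-fold was the p53 target Tnfrsf10b, a death receptor, at 4.77 on PLL 3 h and 5.63 on naive 0 h. Against naive 24 h the medians were -0.39 for the T cell receptor genes and -0.16 for the integrins. Microvilli, actin and vesicle budding genes had a median that rounds to 0 over 30 genes. Ezr, the linker of microvilli to actin, was at 9.70 on the PLL 3 h array and 10.05 on the naive 0 h array. Flot1, which marks membrane microdomains, was the 1 gene of that list past 1.5-fold, at 6.40 on PLL 3 h and 5.58 on naive 0 h.

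Levels on the other arrays are set beside those of the 2 compared arrays here. With ConA for 3 h, 24 of the 37 lower genes and 33 of the 48 higher genes were nearer to the naive 0 h level than to the PLL 3 h level, while on the naive 24 h array 24 of the 37 and 32 of the 48 were nearer to the PLL 3 h level. Neither comparison is independent, since naive 0 h and PLL 3 h fixed which genes were counted. The same counts over all genes were not made, so these have no background share and nothing is read from them. A pair of arrays that shares neither, ConA + PLL minus ConA at 3 h, had 2 of the 48 higher and 2 of the 37 lower genes past 2-fold in the same direction and 2 of the 48 in the opposite one. Of all genes in that pair, 0.573% were 2-fold higher and 0.626% were 2-fold lower. Those 2 lower genes were Hspa1b and Hspa1a, with differences of -1.14 and -1.06; Jun differed by -0.46, Zfp36 by 0.32, Ifit1 by -0.97 and Ifit3 by 0.51. The list medians in that pair were 0.11 for heat shock genes, 0.12 for feedback regulators, 0.06 for glycolysis and 0.01 for type I interferon genes. Between PLL 24 h and naive 24 h, none of the 85 genes was past 2-fold in the same direction as at 3 h, and of all genes only 0.0968% were 2-fold higher and 0.0596% were 2-fold lower. A count of 0 is near that background. By the paper's methods the cells of 24 h samples were washed after 3 h, so the PLL 24 h array may not hold cells kept on PLL for 24 h. The medians there were 0.01 for heat shock, -0.04 for feedback regulators, 0.11 for glycolysis and 0.10 for type I interferon genes. Set against naive 24 h in place of naive 0 h, the median of the PLL 3 h array was 0.20 for heat shock genes, 0.32 for AP-1, 0.16 for feedback regulators, 0.02 for glucocorticoid targets, -0.10 for glycolysis and 0.15 for type I interferon genes. Across all 13428 genes the PLL 3 h difference had a Pearson correlation of 0.000495 with the 24 h difference and of -0.02 with the ConA + PLL minus ConA difference; these are correlations across genes, which share the arrays of each difference and are not replicates.

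**Figure D5:**
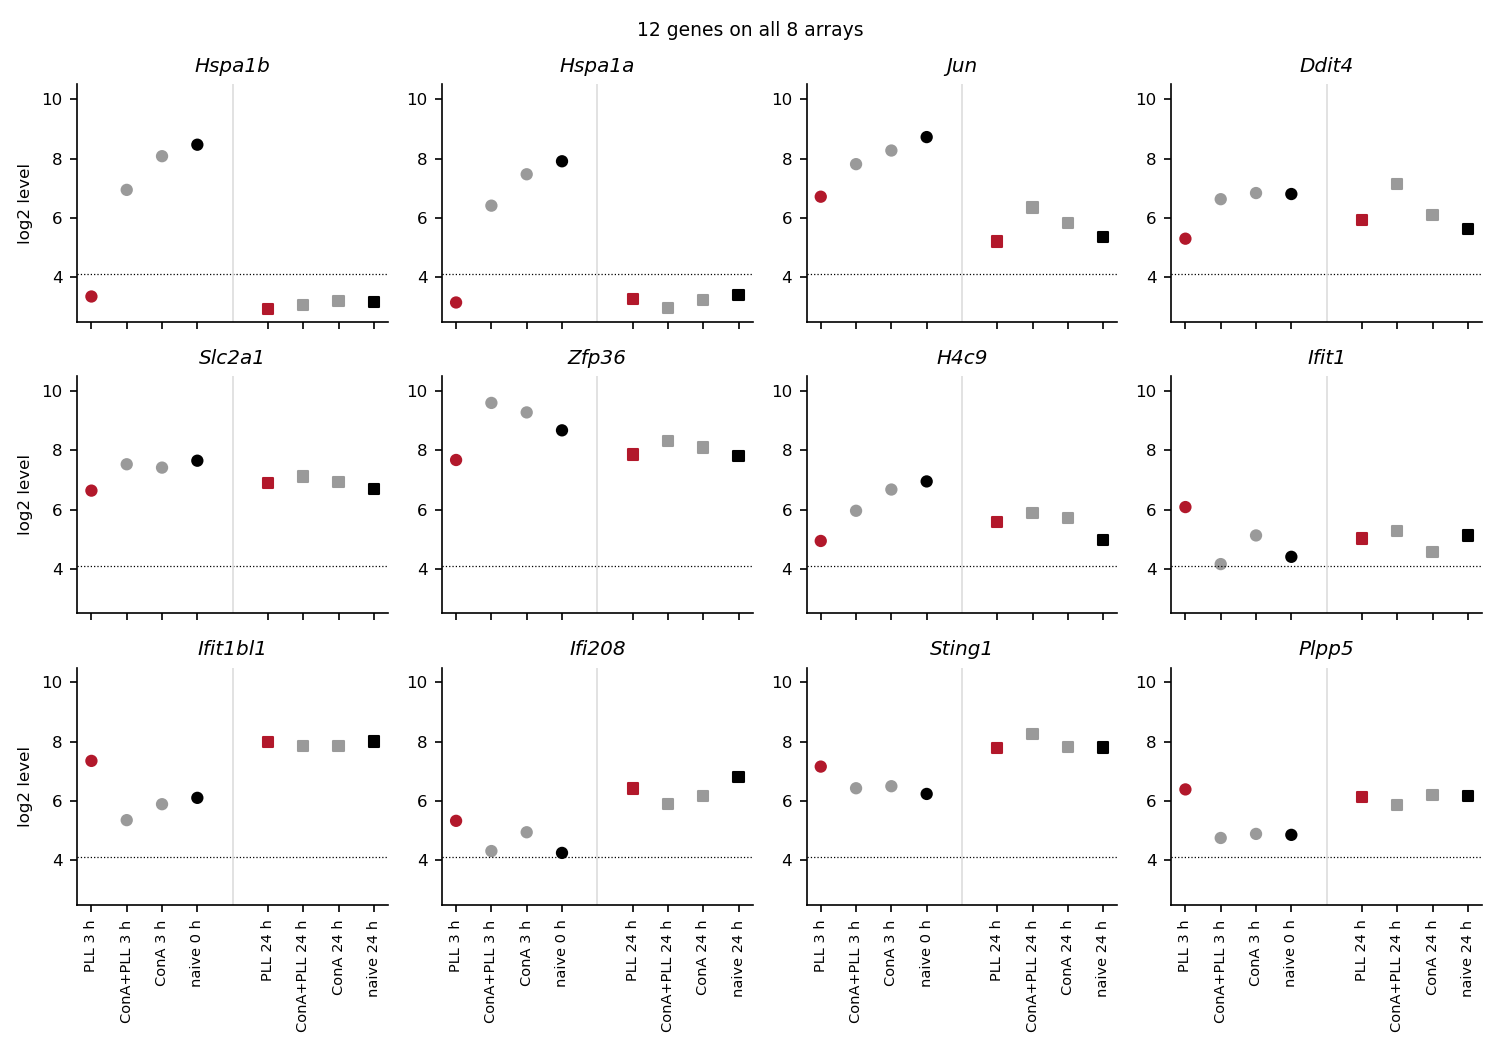
Log2 level of 12 genes on each of the 8 arrays, with circles for the 0 h and 3 h arrays and squares for the 24 h arrays, PLL alone in red, naive in black and ConA or ConA + PLL in grey; the dotted line marks the receptor level of 4.10. Hspa1b and Hspa1a are bright on 3 of the circles and dim on the PLL 3 h circle and all squares, and Ifit1 is highest on PLL 3 h, at 6.08.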

How the data were processed

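Total RNA of mouse CD3 T cells from 8 conditions had been labelled and hybridised, each to a GeneChip Mouse Gene 2.0 ST array of its own, and 2 of these arrays, PLL 3 h and naive 0 h, form the comparison. The deposited table holds log2 values that the authors made by robust multi-array averaging (RMA), which corrects background, sets the arrays to one distribution and sums the probes of a probe set; the base of the logarithm is not written in the table and was taken as 2. Raw scanner signals and detection calls were not used here, so dim values have no detection limit of their own.

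Of 41345 probe sets, 23521 were paired with 1 gene symbol, 1820 with several and 16004 with none in GEO's platform annotation, and 23328 of the first kind were found in the RefSeq gene table. Where a gene had several probe sets (1082 of 22180 genes), the one with the highest mean was kept. Genes whose highest level on any array was at or above the table's median of 3.62 were kept (13428). The level of 4.10 is the 95th percentile of the highest levels of 1390 olfactory and vomeronasal receptor genes. Differences were taken as PLL 3 h minus naive 0 h, and a gene was counted past 1.5-fold or 2-fold with no test. Genes named were the 20 widest in each direction, leaving out predicted, numbered and microRNA names and antigen receptor segments, the 6 widest members of each list, and any member of the heat shock, AP-1, glycolysis, type I interferon and replication-dependent histone lists; the 42 gene lists, the marker lists and the naming rule were chosen with earlier results of these data known. Genes named outside that rule (Nr4a1, Dusp1, Dusp6, Socs1, Fkbp5, Smap2, Zfp760, Gm2046, H2ac1 and the marker H2-Aa) were picked after their values were seen. Each list was described by its counts and its median, with the shares and the median of all genes given as background. The number of arrays limits the precision: 1 a group gives no error for any difference. Alternatives covered quantile normalization, centring, the choice of probe set, 4 filters, 1.5-fold, and the naive 24 h array in place of naive 0 h. The scripts were tested on simulated data and used Python 3.11.15, numpy 2.4.6, pandas 2.3.3 and matplotlib 3.10.9.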

Additional observations from a re-analysis of the deposited data

Results flagged for a closer look

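Probe sets with several gene symbols or none took no part in the comparison of genes. Of 17824 such probe sets, 10835 passed the same filter, and 397 of these (3.66%) were at least 2-fold higher on the PLL 3 h array than on the naive 0 h array and 774 (7.14%) were at least 2-fold lower, larger shares than the 0.357% and 0.276% of genes. They are not named here.

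Gm2046, a predicted gene, was past 2-fold in opposite directions at the 2 times. Its difference was -1.547 between PLL 3 h and naive 0 h, at 1.97 on PLL 3 h and 3.52 on naive 0 h, and 1.438 between PLL 24 h and naive 24 h, at 4.07 on PLL 24 h and 2.63 on naive 24 h. The difference between the times was not tested, and all 4 levels lay under the receptor level of 4.10.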

How the results depend on the processing

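Quantile normalization, centring each array, the mean of a gene's probe sets, no filter and each of 3 other filters left both 2-fold counts within 1.5 times of 48 and 37. The larger number of higher genes did not hold throughout. The counts were 33 higher and 31 lower with the filter on the mean, 37 and 35 with the brighter filter, and 39 and 42 with centring. A gene could pass the main filter through the PLL 3 h array alone, as Klrb1 and Tcl1b2 did. At 1.5-fold the counts were 469 higher and 387 lower. With the naive 24 h array in place of naive 0 h, 112 genes were higher and 121 lower, 11 of the 85 genes kept their 2-fold call in the same direction, and 21 turned sign. In that setting 25 of the 42 list medians lay on the other side of 0, several of them close to 0 in both. Among them were heat shock 0.198, AP-1 0.323, immediate early factors 0.305, feedback regulators 0.161, cytokines 0.026, surface activation receptors 0.556, hypoxia targets 0.212, nucleic acid sensors -0.102, ribosomal proteins 0.026, fatty acid oxidation -0.052, glucocorticoid targets 0.023, regulatory T cell genes 0.364, NF-kB genes 0.655, T cell receptor genes -0.387, endoplasmic reticulum stress 0.159, cholesterol efflux 0.206, DNA replication 0.068 and p53 targets 0.041; glycolysis moved to -0.100 and type I interferon to 0.152. Of 104 single genes examined 42 turned, among them Cd69 (2.17), Fosl2 (1.54), Rgs1 (1.08), Dusp1 (0.83), Sting1 (-0.64), Ifit3 (-0.28), Flot1 (-0.36) and Dapl1 (-0.75). Of the 21 past 2-fold that turned, those the naming rule allows were Cables1 (0.61), Cyp2d34 (-0.053), Hspa1b (0.20, both levels under the receptor level), Ifi208 (-1.48), Ifit1bl1 (-0.65), Jun (1.36), Neto2 (1.14), P4ha1 (0.20), Per1 (0.35), Rhob (0.55) and Tmem229b-ps (-0.94). This array differs by 24 h of culture as well as by PLL; the cause was not tested.

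The heat shock median was -0.173 with the mean of probe sets, the filter on the mean or the brighter filter, each of which tested 20 of its 23 genes, and the mean of the list was -0.607, drawn down by Hspa1a and Hspa1b. With no filter, the medians were -0.091 for AP-1, -0.144 for glucocorticoid targets and 0.268 for type I interferon genes; with the mean of the list they were -0.363 for AP-1 and -0.364 for glucocorticoid targets. The 1.5-fold level was lost by Dusp6, Ero1a, Ifi35 and Zfp36l1 with the mean of probe sets, by Abcg1, Cd69, Dusp1 and Eif2ak3 with quantile normalization, and by Acad11, Acadm, Dbp, Gbp8, Iigp1 and Rtp4 with centring. No paired analysis was possible because each group has 1 array, and for the same reason no array could be left out. Differences of genes under the receptor level of 4.10 are limited by brightness.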

Other observations

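Zinc finger genes named Zfp and a number, a group noticed after the values were seen and for that reason given with no test, were more often higher on the PLL 3 h array. Of 265 that passed the filter, 27 were at least 1.5-fold higher (10.2%) and 6 were at least 1.5-fold lower (2.26%), with a median of 0.08. Among all genes, 3.49% were 1.5-fold higher and 2.88% were 1.5-fold lower. The median of the 265 was 0.20 for naive 24 h minus naive 0 h, a pair without PLL, and -0.04 for ConA 3 h minus naive 0 h. Zfp971 was at 5.35 on PLL 3 h and 4.17 on naive 0 h, and Zfp760 at 4.99 on PLL 3 h and 4.01 on naive 0 h. Among the 176 at or above the receptor level on both arrays, the counts were 11 (6.25%) and 5 (2.84%), against 2.61% and 2.37% of the 9181 genes of that brightness.

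A pair of cholesterol exporters had lower levels on PLL 3 h. Abca1, which exports cholesterol from cells, was at 6.06 on PLL 3 h and 6.87 on naive 0 h, and Abcg1, another exporter, at 7.28 on PLL 3 h and 7.91 on naive 0 h. Of the 6 genes in the list of cholesterol efflux and liver X receptor targets, these 2 were past 1.5-fold and the median was -0.09. Against naive 24 h the differences were 0.72 for Abca1 and 0.37 for Abcg1. Mylip (7.88 on PLL 3 h and 7.99 on naive 0 h) and Lpcat3 (7.52 on PLL 3 h and 7.49 on naive 0 h) were close to level. In the list of naive and homing genes, Dapl1 was at 8.39 on PLL 3 h and 7.51 on naive 0 h, while Ly6c2 was at 6.35 on PLL 3 h and 7.03 on naive 0 h.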
